A study of Mus musculus with 12 samples.

Results

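The genes described here are 10 upstream members of the Hippo pathway, namely Nf2, Wwc1, Wwc2, Frmd6, Stk4, Sav1, Lats1, Lats2, Amot and Amotl1. They were chosen by name, with earlier results of these data known. Every probe set whose single gene symbol in the platform table was 1 of the 10 was taken. This gave 31 probe sets out of 45037 on the array, of which 28898 carried a single symbol. A probe set is a group of short probes read out together as 1 value, and a gene had between 1 (Frmd6) and 5 (Wwc2 and Lats2) of them.

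RNA from embryonic mouse brain of mixed genetic background was hybridised to 12 arrays, 3 in each of 4 groups. YAP overexpression embryos (TetO-YAP1;Nes-rtTA) carried a doxycycline-dependent YAP1-S127A transgene and the transactivator rtTA under the neural progenitor promoter of Nestin, and YAP control embryos (Nes-rtTA) carried the transactivator alone. Their forebrain with midbrain was collected at E11.5, and dams of this system ate food with doxycycline at 200 mg/kg from E7.5. Nf2 knockout embryos (Nf2F/F;Emx1-Cre) had both floxed copies of Nf2 open to the telencephalic Emx1-Cre, and Nf2 control embryos (Nf2F/+;Emx1-Cre) had 1 floxed copy and the same Cre, so that these controls also lack a copy in Cre-expressing cells. Dorsal telencephalon was taken at E13.5. The feeding of control dams is not stated apart. Whether the arrays of a group came from separate embryos is not labelled, so the spread behind each p-value may be a technical one.

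In the Hippo pathway, the kinase MST1 (Stk4) with its scaffold SAV1 activates LATS1 and LATS2, which phosphorylate YAP and keep it out of the nucleus. Merlin (Nf2), KIBRA (Wwc1), its relative WWC2 and the FERM protein FRMD6 act upstream at the cell cortex and bring the kinases together. Angiomotins such as AMOT and AMOTL1 bind YAP and hold it at junctions and actin. The S127A change removes a site at which LATS kinases phosphorylate YAP. Nuclear YAP works through TEAD transcription factors, and several of its inhibitors, Lats2 among them, are known targets of YAP, which makes a negative feedback loop.

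The promoters of these genes were searched for GGAATG or its reverse complement CATTCC, the core word bound by TEAD factors. RefSeq promoters (build GRCm38.p6, 250 bases before to 50 after the annotated start) were matched for all 10 genes, 12 promoters in all. The word was found in 3 of the 12 promoters, 1 each of Wwc2, Lats2 and Sav1, and in 14.7% of the 32851 promoters in the table. Wwc2 held 3 copies, 203, 94 and 79 bases upstream of the start, a number reached by 0.131% of all promoters (43). The copy of Lats2 lay 4 bases past 1 of its 2 starts and that of Sav1 106 bases upstream. No copy was in the 300 bases of Wwc1, Amot or the remaining promoters, which says nothing of sites elsewhere. The promoters of 2 genes that rose with YAP and hold the word are shown. They run 5′ to 3′ on the minus strand, at chr8:47990495-47990794 for Wwc2 and chr14:57746074-57746373 for Lats2, with the word in capitals.
Wwc2 promoter: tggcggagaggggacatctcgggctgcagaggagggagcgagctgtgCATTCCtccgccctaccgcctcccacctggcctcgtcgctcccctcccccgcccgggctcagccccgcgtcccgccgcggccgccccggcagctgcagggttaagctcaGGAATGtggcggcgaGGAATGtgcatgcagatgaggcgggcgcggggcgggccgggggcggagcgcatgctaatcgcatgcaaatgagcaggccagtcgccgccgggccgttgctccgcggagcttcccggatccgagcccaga
Lats2 promoter: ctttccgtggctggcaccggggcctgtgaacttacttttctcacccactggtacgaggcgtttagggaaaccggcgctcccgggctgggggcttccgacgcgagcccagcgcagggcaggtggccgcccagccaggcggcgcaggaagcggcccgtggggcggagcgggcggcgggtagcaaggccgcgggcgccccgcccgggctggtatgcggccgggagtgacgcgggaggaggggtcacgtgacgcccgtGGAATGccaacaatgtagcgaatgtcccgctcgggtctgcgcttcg

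**Figure D1:**
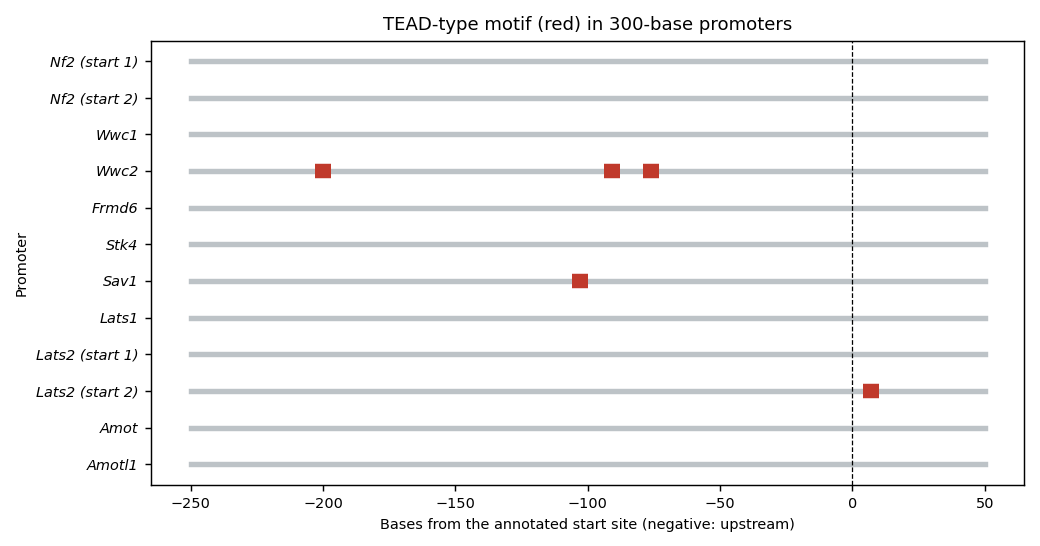
Each grey bar is 1 of the 12 RefSeq promoters of the 10 genes, from 250 bases before to 50 bases after the start (x axis, in bases), and red blocks mark GGAATG on either strand. Wwc2 carries 3 blocks, and Sav1 and 1 of the 2 Lats2 starts carry 1 each.

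Levels are log2 intensities as deposited, so a difference of 1 is a 2-fold change, and levels are compared only within an experiment and a probe set. The median of an array lay between 5.03 and 5.1 for YAP and between 4.3 and 4.42 for Nf2. Arrays of a group correlated at r of at least 0.993 across probe sets, and their number limits the precision. A probe set is called, and is said to have risen or fallen, where limma's p is under 0.05 after Benjamini-Hochberg adjustment across the 45037 probe sets. The SE given with a difference is limma's standard error, with 3 arrays against 3. With YAP overexpression 3.78% of all probe sets were called, and 1.48% rose and 2.30% fell (667 and 1037, so 39.1% of the calls were higher, against 49.2% once each array's median was subtracted). With Nf2 knockout 0.133% were called, and 0.113% rose and 0.0200% fell (51 and 9). Blocking the 6 Nf2 arrays by replicate number, without the YAP arrays, limma called 0 probe sets, with 3723 at an unadjusted p under 0.05, so every Nf2 call named here, of other genes too, is lost in that fit.

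With YAP overexpression, 8 of the 31 probe sets rose (25.8%, against 1.48% of all) and none fell, with none lower at an unadjusted limma p under 0.05 either. They belonged to 4 of the 10 genes, namely Wwc2 (3 of 5 probe sets), Wwc1 (2 of 4), Lats2 (2 of 5) and Amot (1 of 3). All 3 overexpression arrays lay above all 3 controls in 10 of the 31 (32.3%), against 7.89% of all probe sets, and below them in 1 (3.23%), against 10.3%. The median log2 difference was 0.11 over the 31 probe sets and -0.01 over all. With Nf2 knockout, 3 of the 31 rose (9.68%, against 0.113% of all), all of them Wwc2, and none fell, with 1 lower at an unadjusted limma p under 0.05. Knockout arrays lay wholly above controls in 7 (22.6%), against 5.39% of all probe sets, and wholly below in 1 (3.23%), against 5.38%. The median difference was 0.02 over the 31 and 0.00 over all. Because the 10 genes were chosen with earlier results of these data known, the shares in both experiments are descriptions and no test of an excess. Probe sets of the same gene are also not separate results.

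**Figure D2:**
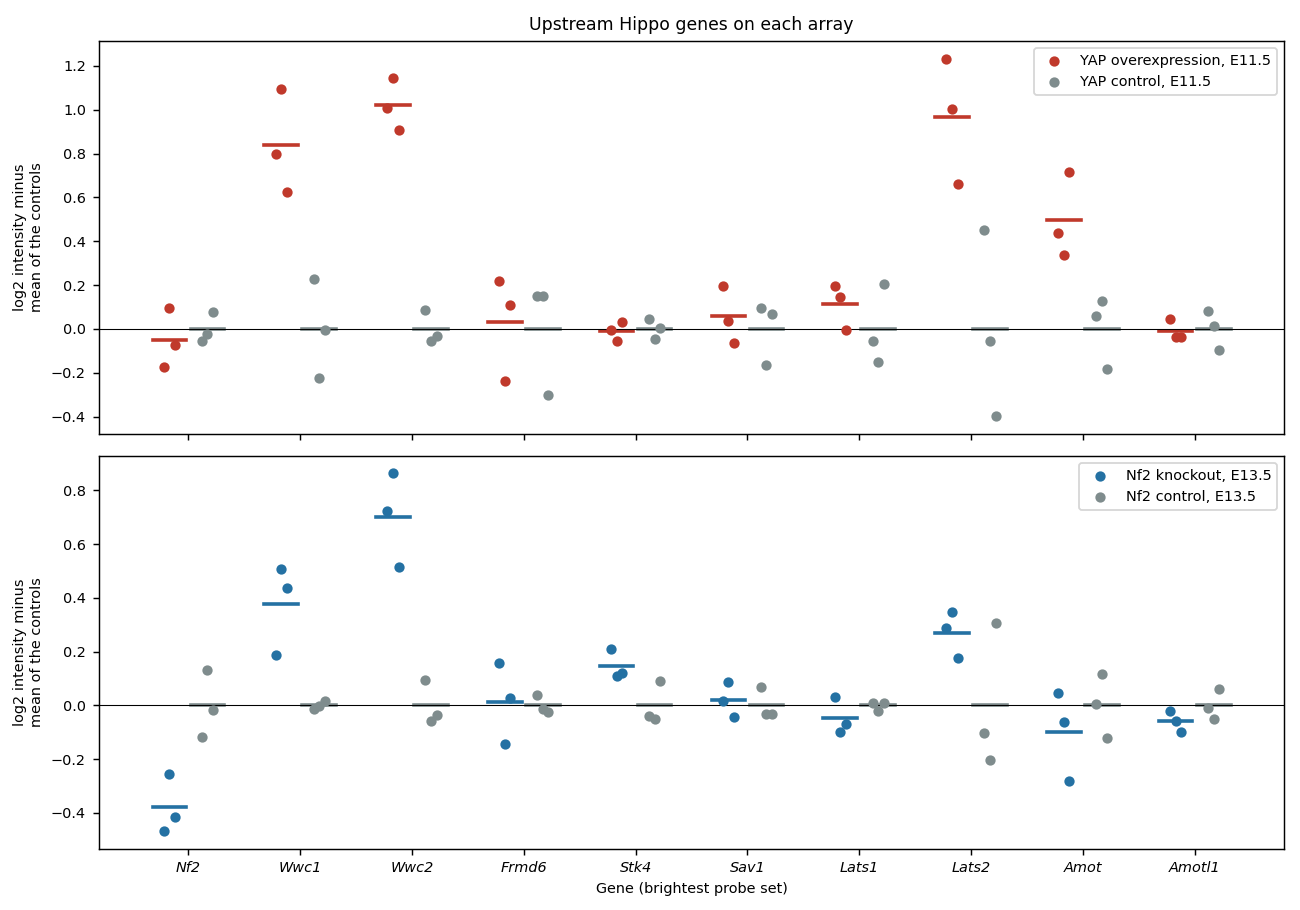
Log2 intensity minus the mean of the experiment's controls (y axis) for the probe set of each gene with the highest mean over all arrays, with 1 point per array and a bar at the group mean. YAP overexpression (upper panel) and Nf2 knockout (lower panel) stand left of their controls. Wwc1, Wwc2, Lats2 and Amot lie above the controls at E11.5, and at E13.5 Wwc2, Wwc1 and, by less, Stk4 lie above and Nf2 below.

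Nf2, the deleted gene, comes first because it checks the labels. Its brightest probe set, 1421820_PM_a_at, read 8.06, 8.27 and 8.11 in the knockouts, against 8.41, 8.66 and 8.51 in the Nf2 controls. Every knockout array was below every control, with a log2 difference of -0.38 (SE 0.10) that was not called (adjusted p = 0.393). The same-numbered arrays differed by -0.35, -0.39 and -0.40. The other 3 probe sets differed by between -0.22 and -0.09, and their arrays overlapped. Where the probes lie relative to the deleted part of the gene is not given in the sources used here, so a small difference checks little. With YAP overexpression the brightest probe set differed by -0.05 (SE 0.10, adjusted p = 0.879), with a 95% interval from -0.26 to 0.16. A second Nf2 probe set, 1450382_PM_at, was at 6.94, 6.96 and 6.97 in the overexpression arrays, against 7.14, 7.10 and 7.28 in the YAP controls. These did not overlap, but the difference of -0.22 (SE 0.12) was not called (adjusted p = 0.414). None of the 4 Nf2 probe sets was higher with YAP.

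Wwc2, a cortical scaffold related to KIBRA, was the member that rose in both experiments. At E11.5 its probe set 1417195_PM_at read 8.15, 8.15 and 7.99 with YAP overexpression, against 6.68, 6.95 and 6.70 in controls. The groups stood more than 1 log2 unit apart, a difference of 1.32 (SE 0.11, 2.50-fold, adjusted p = 3.59e-05). Probe set 1417196_PM_s_at read 8.61, 8.51 and 8.29, against 7.49, 7.30 and 7.20, and rose by 1.14 (SE 0.11, 2.20-fold, adjusted p = 0.000109). The brightest, 1448611_PM_at, read 9.10, 9.24 and 9.0 in overexpression arrays, against 8.18, 8.04 and 8.06 in controls. This was a rise of 1.02 (SE 0.10, 2.03-fold, adjusted p = 0.000168). Each of the 3 calls held under every alternative that tested it. The 2 remaining probe sets were dim, below the median of all probe sets. Of these, 1417197_PM_at was 0.53 higher (SE 0.19, adjusted p = 0.185) with arrays that did not overlap, and 1417198_PM_at differed by 0.11 (adjusted p = 0.773).

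In the Nf2 knockouts the same 3 probe sets of Wwc2 rose. Probe set 1417196_PM_s_at read 6.94, 6.88 and 6.88 in knockouts, against 6.10, 5.95 and 5.81 in Nf2 controls, a rise of 0.95 (SE 0.11, 1.93-fold, adjusted p = 0.00338). Probe set 1448611_PM_at read 7.62, 7.76 and 7.41, against 6.99, 6.84 and 6.86, and rose by 0.70 (SE 0.10, 1.62-fold, adjusted p = 0.0178). Probe set 1417195_PM_at read 7.13, 7.22 and 7.04, against 6.55, 6.54 and 6.23, a rise of 0.69 (SE 0.11, 1.61-fold, adjusted p = 0.0289). In no case did a knockout array reach down to a control. The dim 1417197_PM_at, at 4.54, 4.48 and 4.89 against 3.88, 3.74 and 4.06, was 0.74 higher (SE 0.19) without a call (adjusted p = 0.407). Same-numbered arrays of this experiment may be pairs, which the labels do not state and the data do not establish. With replicate number as a block in its 6 arrays alone, none of the 3 was called (adjusted p = 0.0673 for 1417196_PM_s_at, 0.226 for 1448611_PM_at and 0.138 for 1417195_PM_at). Without a block, the same 6 arrays kept the call of 1417196_PM_s_at (0.0188) and lost those of 1448611_PM_at (0.124) and 1417195_PM_at (0.143). With the block within all 12 arrays, chosen after seeing the data, 1417196_PM_s_at (adjusted p = 0.00826) and 1417195_PM_at (0.0443) were called and 1448611_PM_at was not (0.0706). With 1 array of the experiment left out, 1417196_PM_s_at kept its call in 6 of 6 fits. Under the same omissions 1448611_PM_at was called only without knockout replicate 3, with an adjusted p from 0.051 to 0.106 in the others, and 1417195_PM_at in none (0.0647 to 0.164).

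**Figure D3:**
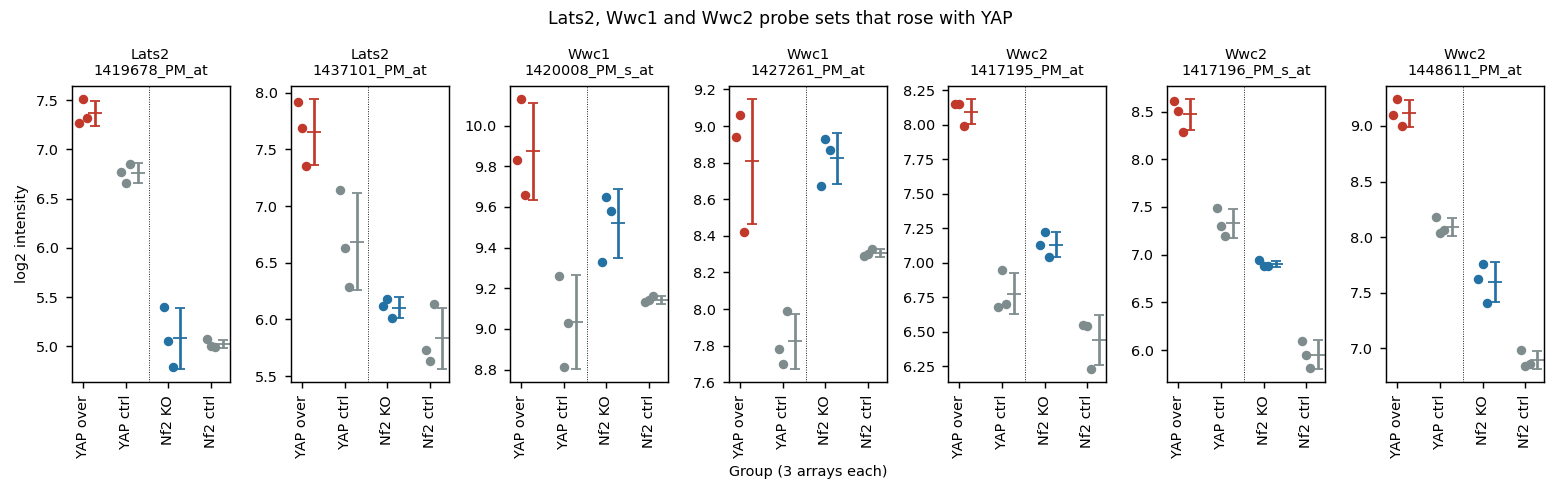
Log2 intensity (y axis, scaled for each panel) of the 7 probe sets of Lats2, Wwc1 and Wwc2 that rose with YAP, with 3 arrays per group as points and the mean with SD beside them. Groups right of the dotted line are from the Nf2 experiment, whose levels are not compared with those to the left. All 3 Wwc2 panels show separate groups in both experiments, while the Lats2 panels do so only at E11.5.

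Wwc1 encodes KIBRA, which binds Merlin and LATS kinases. Its probe set 1427261_PM_at read 8.94, 9.06 and 8.42 with YAP overexpression, against 7.78, 7.70 and 7.99 in controls, and rose by 0.98 (SE 0.14, 1.98-fold, adjusted p = 0.00243). The brightest, 1420008_PM_s_at, read 9.83, 10.13 and 9.66, against 9.26, 8.81 and 9.03, and rose by 0.84 (SE 0.14, 1.79-fold, adjusted p = 0.00451). In both, overexpression replicate 2 was the highest array and replicate 3 the lowest of its group. Both calls held with any 1 array left out. With the replicate block in the YAP arrays alone, limma called neither (adjusted p = 0.0884 for 1427261_PM_at and 0.101 for 1420008_PM_s_at). With the block in the fit of both experiments' arrays, both were kept (0.0183 and 0.0232). The dim probe sets 1420007_PM_at and 1420009_PM_at differed by 0.00 and -0.20 (adjusted p = 1 and 0.57).

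At E13.5 Wwc1 was higher in knockouts without a call. Probe set 1427261_PM_at read 8.67, 8.93 and 8.87 in knockouts, against 8.29, 8.30 and 8.33 in controls, a difference of 0.52 (SE 0.14, adjusted p = 0.523). Probe set 1420008_PM_s_at read 9.33, 9.65 and 9.58, against 9.13, 9.14 and 9.16, a difference of 0.38 (SE 0.14, adjusted p = 0.821). The groups did not overlap in either, and each 95% interval lay above 0, from 0.21 to 0.83 and from 0.08 to 0.67. With the replicate block neither was called (adjusted p = 0.296 and 0.448).

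Frmd6 encodes a FERM-domain protein of the cell cortex and had 1 probe set. It read 8.37, 7.91 and 8.26 with YAP overexpression, against 8.30, 8.30 and 7.85 in controls, so the groups overlapped. The difference was 0.03 (SE 0.14, adjusted p = 0.954), with a 95% interval from -0.27 to 0.33. In the Nf2 experiment it differed by 0.01 (SE 0.14, adjusted p = 0.996).

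Of the core kinase module, Stk4 and Sav1 were not called in either experiment. The brightest Stk4 probe set, 1434159_PM_at, read 9.75, 9.70 and 9.79 with YAP overexpression, against 9.80, 9.71 and 9.76, a difference of -0.01 (SE 0.07) whose 95% interval ran from -0.17 to 0.15. In Nf2 knockouts it read 8.73, 8.63 and 8.64, against 8.48, 8.47 and 8.61 in controls, wholly above them by 0.15 (SE 0.07, adjusted p = 0.996). Sav1, the scaffold that binds MST kinases, had 2 probe sets. The dimmer, 1416075_PM_at, read 7.24, 7.01 and 6.95 with YAP overexpression, against 6.88, 6.56 and 6.63 in controls. These arrays did not overlap, and the difference of 0.38 (SE 0.11) was not called (adjusted p = 0.0954), though it was after quantile normalization (0.44, adjusted p = 0.0357). The brighter, 1448204_PM_at, differed by 0.06 (SE 0.09, adjusted p = 0.853). Both Sav1 probe sets differed by at most 0.03 in the Nf2 experiment.

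Lats2, 1 of the 2 kinases that phosphorylate YAP, rose with YAP overexpression on both of its bright probe sets. Probe set 1437101_PM_at read 7.92, 7.69 and 7.35, against 7.14, 6.63 and 6.29 in controls, and rose by 0.97 (SE 0.20, 1.95-fold, adjusted p = 0.0188). The lowest overexpression array lay just above the highest control, and the control SD was 0.43 (n = 3). Probe set 1419678_PM_at read 7.27, 7.51 and 7.32, against 6.77, 6.66 and 6.85, and rose by 0.61 (SE 0.13, 1.52-fold, adjusted p = 0.0213). Each call was lost in some alternatives, while the differences stayed between 0.768 and 1.193 for the first and between 0.535 and 0.663 for the second. The first was lost without overexpression replicate 1 (adjusted p = 0.0774), control replicate 2 (0.0598) or control replicate 3 (0.0832), and with the 6 arrays of the YAP experiment fitted alone (0.0766). With 1 array left out, the second was kept only without overexpression replicate 1, and its adjusted p was otherwise 0.0530 to 0.0745. With the replicate block in the 6 YAP arrays the first was kept (0.0223) and the second lost (0.0973). With the block within all 12 arrays both were kept (0.00973 and 0.0378). The 3 dim Lats2 probe sets differed by between -0.10 and 0.13.

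In the Nf2 experiment Lats2 was not called. Probe set 1437101_PM_at read 6.12, 6.18 and 6.01 in knockouts, against 5.73, 5.63 and 6.14 in controls, where control replicate 3 lay within the knockouts. It differed by 0.27 (SE 0.20, adjusted p = 0.996), with a 95% interval from -0.17 to 0.71. Probe set 1419678_PM_at differed by 0.06 (SE 0.13). Lats1, the other kinase, was called in neither experiment. Its bright probe set 1435739_PM_at read 10.17, 10.12 and 9.97 with YAP overexpression, against 9.92, 9.82 and 10.18 in controls, a difference of 0.11 (SE 0.10, adjusted p = 0.658) with an interval from -0.10 to 0.32. At E13.5 it differed by -0.05 (SE 0.10). Whether the changes of Lats2 and Lats1 differ from each other was not tested.

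Amot, which encodes an angiomotin that binds YAP, rose with overexpression on its single bright probe set. The probe set, 1454890_PM_at, read 9.98, 9.88 and 10.26, against 9.60, 9.67 and 9.36 in controls, a rise of 0.50 (SE 0.12, 1.41-fold, adjusted p = 0.0455). The groups did not overlap. The call was lost on leaving out any 1 array other than overexpression replicate 2, with an adjusted p from 0.057 to 0.18. It was also lost with the 6 YAP arrays fitted alone (0.115) and with array weights (0.0719). The replicate block lost it too, in the 6 YAP arrays (0.241) and within all 12 arrays (0.0917). The dim probe sets 1427584_PM_at and 1425907_PM_s_at differed by 0.25 and -0.02. In Nf2 knockouts the bright probe set read 8.53, 8.42 and 8.20, against 8.49, 8.60 and 8.36, and differed by -0.10 (SE 0.12, adjusted p = 0.996). Amotl1, a second angiomotin, was called nowhere. Its brightest probe set, 1428785_PM_at, read 10.50, 10.42 and 10.42 with YAP, against 10.54, 10.47 and 10.36 in controls, a difference of -0.01 (SE 0.07) with an interval from -0.17 to 0.15, and in the Nf2 experiment it differed by -0.06 (SE 0.07).

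**Figure D4:**
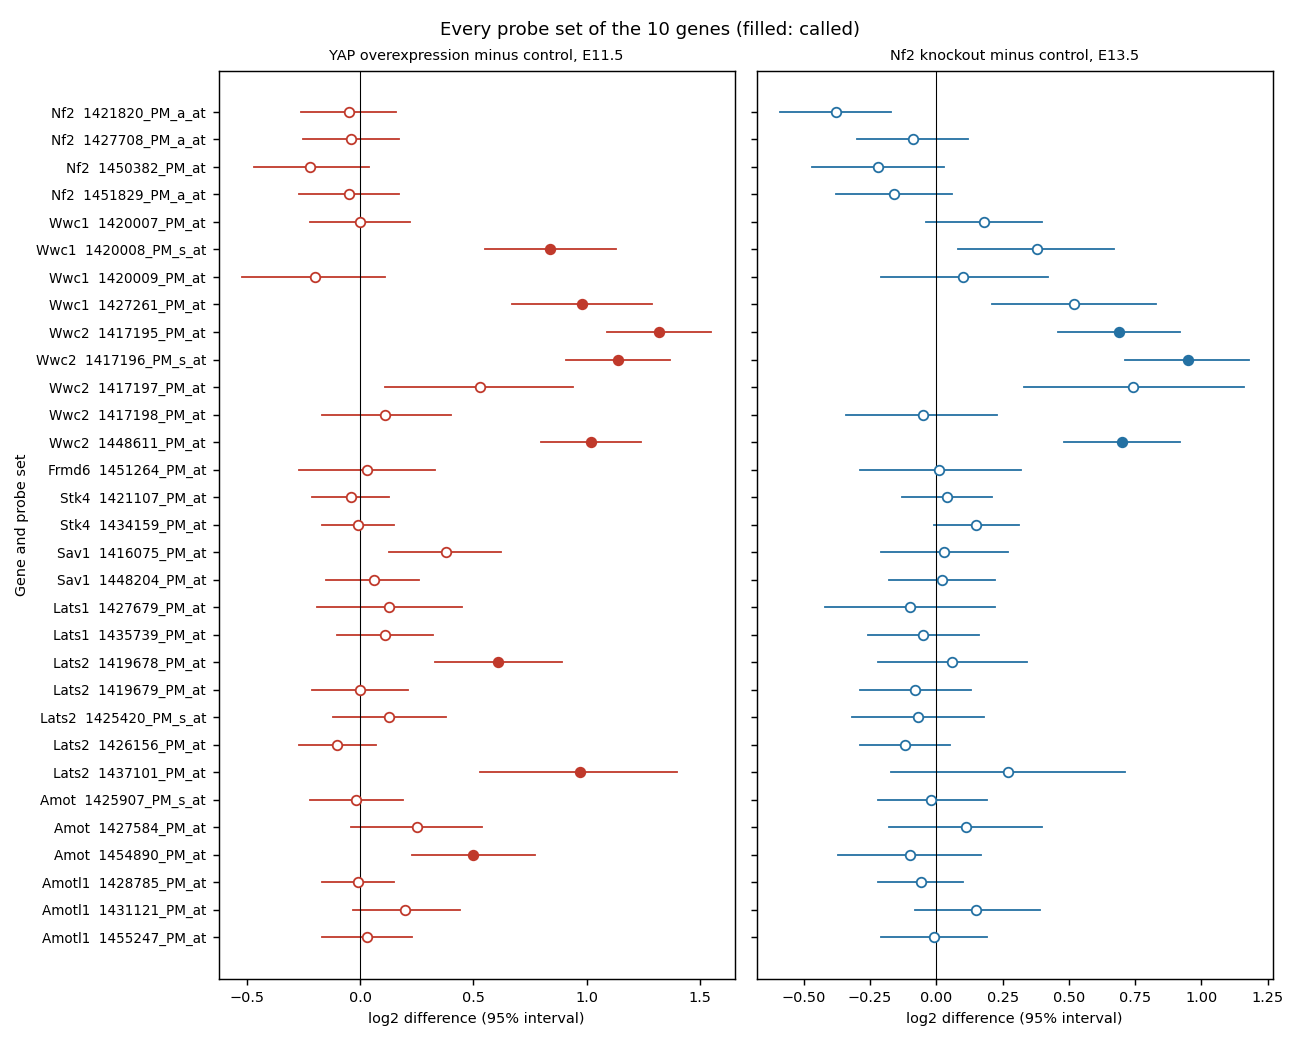
Log2 difference with its 95% interval (x axis, scaled for each panel) for all 31 probe sets of the 10 genes, with YAP overexpression minus control on the left and Nf2 knockout minus control on the right. Filled points were called, 8 on the left and 3 on the right, and every filled point lies above 0.

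No call fell among the dim probe sets. Of the 31, 13 averaged below the median of all probe sets at E11.5 and 14 at E13.5, and none of these was called. Of all probe sets, dim or bright, 3.78% and 0.133% were called (1704 and 60). With dim probe sets left out of the fit, 1609 and 56 of these were called again, so most calls lay among bright ones. The lack of calls among so few dim probe sets therefore says little of these genes. Of the remaining 18 and 17 members' probe sets, 8 and 3 were called, so many bright ones were not called either. No probe set was removed before testing.

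The experiments differ in tissue, age and manipulation at once, and the difference of their effects was tested directly. Over all probe sets 0.120% were called for it (0.0733% higher and 0.0466% lower), and none of the 31 was. At an unadjusted limma p under 0.05 there were 9 of the 31, against 3723 of all 45037 probe sets. The smallest adjusted p was that of Wwc2 1417195_PM_at, which rose by 1.32 with YAP and by 0.69 with Nf2 knockout, a difference of 0.63 (SE 0.15, adjusted p = 0.195). The Amot probe set 1454890_PM_at, 0.50 higher with YAP and -0.10 in Nf2 knockouts, followed (0.60, SE 0.18, adjusted p = 0.311). Lats2 (1437101_PM_at) and Wwc1 (1420008_PM_s_at) gave differences of 0.70 (SE 0.28, adjusted p = 0.532) and 0.46 (SE 0.19, adjusted p = 0.540). The intervals of all 4 lay above 0, but a larger effect of YAP than of Nf2 loss was not shown for any member after adjustment.

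The pathway around these genes was read from lists chosen with earlier results of these data known, each gene by its brightest probe set. Of 26 other upstream genes, 18 were measured, and the remaining 8, among them the MST2 gene Stk3, had no probe set with that symbol alone and were not analysed here. With YAP overexpression 5 of the 18 rose and none fell, against 2.06% and 2.92% of all 17097 genes, and their median difference was 0.03, against -0.01 over all genes. At an unadjusted limma p under 0.05 there were 10, against 3353 of the 17097 genes when only each gene's brightest probe set was fitted. Of the 10, 6 were higher and 4 lower (Taok2 at -0.29, Csnk1e at -0.24, Dlg5 at -0.22 and Llgl1 at -0.17, named after their values were seen). Overexpression arrays lay wholly above controls for 6 of the 18 and wholly below for 5, against 7.89% and 10.3% of all probe sets. Those shares count probe sets, dim and unnamed ones included, and not genes. Ajuba, a LIM protein that binds and inhibits LATS kinases, rose by 1.86 (SE 0.15, adjusted p = 3.59e-05), and its relative Wtip by 0.84 (SE 0.10, adjusted p = 0.000655). Ptpn14, a phosphatase that binds YAP and KIBRA, rose by 1.66 (SE 0.18, adjusted p = 0.000344), the angiomotin Amotl2 by 0.73 (SE 0.09, adjusted p = 0.000701) and the scaffold Rassf1 by 0.61 (SE 0.14, adjusted p = 0.0341). The LATS cofactors Mob1a and Mob1b differed by 0.19 and -0.17 (adjusted p = 0.264 and 0.468).

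In Nf2 knockouts 2 of these 18 rose and none fell, against 0.175% and 0.0351% of all genes. At an unadjusted limma p under 0.05 there were 5, all higher, against 1066 of 17097 genes when only each gene's brightest probe set was fitted. The called genes were Ajuba (0.92, SE 0.15, adjusted p = 0.0396) and Amotl2 (0.73, SE 0.09, adjusted p = 0.00492). The median of the 18 was -0.02. Ptpn14, Rassf1 and Wtip were 0.66, 0.36 and 0.30 higher without a call. Inhibitors of YAP (Wwc2, Wwc1, Lats2, Amot, Amotl2 and Ptpn14) and an inhibitor of LATS (Ajuba) were both among the genes that rose with YAP. Wtip, the relative of Ajuba, and Rassf1 rose there too. The calls of Wwc1, Lats2 and Amot were lost in some alternatives.

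Among 7 genes of YAP, its paralogue and their DNA-binding partners, Tead1 (0.55, SE 0.08, adjusted p = 0.00194) and the TAZ gene Wwtr1 (0.35, SE 0.08, adjusted p = 0.0252) rose with YAP overexpression, 5 were not called, and none was called in Nf2 knockouts, where 1 had an unadjusted limma p under 0.05. Yap1 itself read 11.30 ± 0.06 with overexpression and 11.04 ± 0.04 in controls (SD, n = 3 each) and was not called by limma (adjusted p = 0.0957). Its probes were not compared with the transgene. Of 3 YAP reporter genes, 2 rose in each experiment. Ccn2 and Ccn1, which encode matrix-associated proteins, rose by 2.50 (SE 0.22) and 1.93 (SE 0.11) with YAP and by 2.03 (SE 0.22) and 1.02 (SE 0.11) with Nf2 knockout. The third, Ankrd1, differed by 0.41 with YAP (adjusted p = 0.256) and by 0.04 with Nf2 knockout (adjusted p = 0.996).

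**Figure D5:**
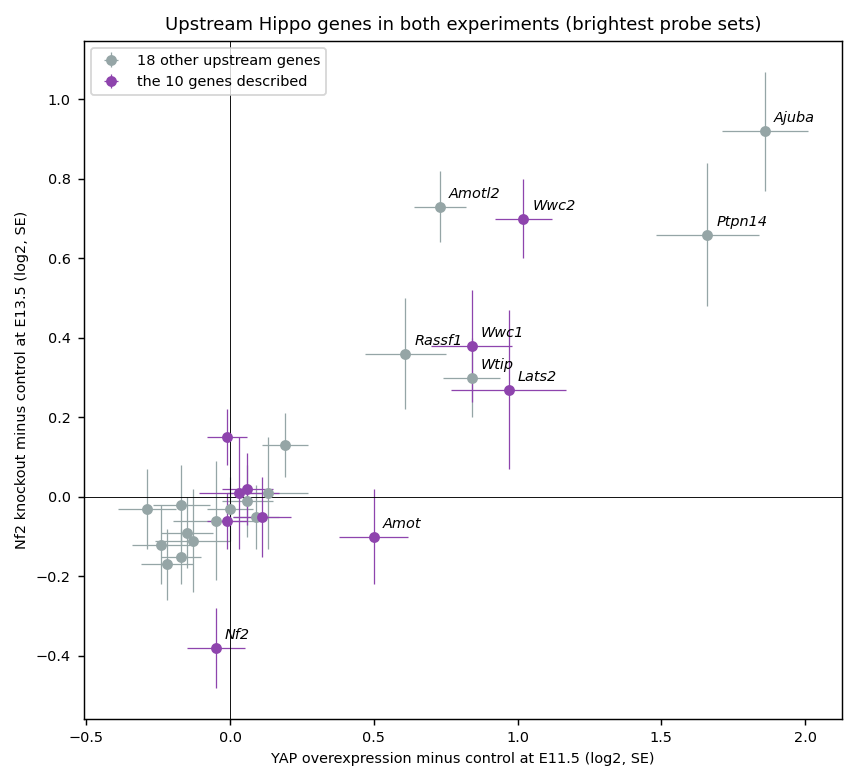
Log2 difference with SE of each gene's brightest probe set, YAP overexpression minus control at E11.5 (x axis) and Nf2 knockout minus control at E13.5 (y axis), for the 10 genes (purple) and 18 other upstream genes (grey). Wwc2, Amotl2, Ajuba and Ptpn14 lie high on both axes, Lats2 and Amot mainly on the x axis, and Nf2 lies lowest on the y axis.

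Genes of like pattern were looked for over the 12 arrays, each experiment set to the mean of its controls. These correlations are descriptions, since arrays of a group share their genotype. The patterns most like that of Wwc2 were those of Pdlim1 (r = 0.982), the actin-binding Shroom3 (0.977) and the claudin Cldn12 (0.976). All 3 were called in both experiments, for example Pdlim1 by 1.6 (SE 0.11) with YAP and 1.11 (SE 0.11) with Nf2 knockout. Ccn1 and Ccn2 stood at ranks 10 and 11 (0.957 and 0.956), and Wwc1 at rank 48 (0.915). The patterns nearest to Wwc1 were those of Pcgf5 (0.951), Palld (0.940) and Clu (0.938), and Wwc2 was at rank 17. Nearest to Lats2 were Pwp1 and Mettl2 (0.962 each), neither called in either experiment, and Tmem64 (0.950), which rose with YAP by 0.51 (SE 0.09, adjusted p = 0.00563). Wwc1 and Wwc2 stood at ranks 109 and 256 for Lats2 (r = 0.861 and 0.808).

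The tissue is a mixture, and in bulk RNA fewer cells of a type and less RNA per cell cannot be told apart. Of 8 neural progenitor markers, 7 averaged above the median of all probe sets in each experiment, as did all 3 measured telencephalic markers. Choroid plexus markers such as Ttr (12.54 in Nf2 knockouts and 12.65 in Nf2 controls) were bright in the dorsal telencephalon. With YAP overexpression, neuronal markers fell in 5 of 7 cases, and their mean level was 9.68 to 10.11 in overexpression arrays, against 10.31 to 10.57 in controls. All 3 telencephalic markers (8.33 to 8.43, against 8.83 to 9.21) and 2 of 8 progenitor markers (9.82 to 10.04, against 9.96 to 10.10) fell as well. Neither endothelial (0 of 9) nor mesenchymal (0 of 9) nor microglial (0 of 7) nor erythroid (0 of 6) markers were called by limma in this experiment, with 0, 2, 0 and 2 at an unadjusted p under 0.05. Krt19 (0.84) of 7 epithelial and Folr1 (1.5) of 6 choroid plexus markers rose. The part of these shifts in the rise of Wwc1, Wwc2, Lats2 and Amot was not tested.

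With Nf2 knockout no marker of any list was called by limma. All 9 endothelial markers were lower, by between -0.53 and -0.01, with 4 at an unadjusted p under 0.05, and their mean level was 5.72 to 6.25 in knockouts, against 6.24 to 6.36 in Nf2 controls. All 7 microglial markers were higher, by 0.04 to 0.55, with 3 at an unadjusted p under 0.05 and a mean level of 5.49 to 5.63 in knockouts, against 5.21 to 5.29 in controls. Neuronal markers had a mean level of 8.85 to 9.0, against 8.93 to 9.11, and erythroid markers of 8.77 to 8.89, against 9.05 to 9.24. The part of these levels in the rise of Wwc2 was not tested.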

How the data were processed

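The authors deposited a log2 intensity with 2 decimals for each probe set, and per the submitters' processing notes RMA, Affymetrix Expression Console 1.1 and Partek 6.5 were used, without their roles. The experiments' array medians differed as if normalized separately, so levels were not compared across them. Of 45037 probe sets, 28898 had a single gene symbol in the platform table, 551 had several and the others were unnamed. Symbols were updated through Entrez ID for 28689 of them, and 209 kept the platform's symbol.

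All 12 arrays entered 1 limma fit of the 4 group means (limma 3.58.1, R 4.3.3, 8 residual and 4.622 prior degrees of freedom), with two-sided p-values under Benjamini-Hochberg adjustment. Exact permutation was not used, since 3 arrays against 3 reach no two-sided p under 0.1. The scripts were tested on simulated data. At most 2.66% of values were identical between arrays of a group. Alternatives changed the arrays or variance used, the normalization, the probe sets kept and the replicate block.

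The 10 genes, the gene lists and the tests were chosen with earlier results of these data known. Probe sets of the 10 genes were all described. Other pathway genes are named where called, plus Yap1, Ccn1, Ccn2, Stk3, Amotl2, Mob1a and Mob1b, with Ankrd1 added, and Ptpn14, Rassf1 and Wtip are repeated where not called. The marker genes Ttr, Krt19 and Folr1 are named after their values were seen.

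Labels number the arrays of each group. In the Nf2 experiment deviations from the group mean correlated at 0.296, 0.205 and 0.268 between same-numbered arrays and at -0.268 to -0.0316 between others. The numbers were therefore tried as pairs, though the labels do not state pairing. Deviations of 3 arrays from their mean sum to 0, so these correlations depend on each other. In the YAP experiment overexpression replicate 3 and control replicate 2, of unlike number, correlated at 0.26. The check thus does not establish pairs.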

Additional observations from a re-analysis of the deposited data

How the results depend on the processing

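The 3 Wwc2 calls with YAP overexpression held under every alternative, and no called member changed sign under any. In all, 1704 probe sets were called with YAP, 648 with this experiment's 6 arrays alone, 1078 with 1 probe set a gene (fewer are tested) and 784 to 2014 with 1 array left out. The lowest of these counts was without control replicate 3, and those without control replicate 1 (999), overexpression replicate 1 (1031) and overexpression replicate 3 (1052) were also low. Called members numbered 8, with 4 in the fit of 1 probe set a gene and 5 to 7 with 1 array left out (5 without control replicate 2 or 3). Same-numbered YAP arrays did not correlate alike (0.117, -0.141 and -0.147). With the replicate block in 6 arrays, 197 probe sets and 4 members were called with YAP, 3 of Wwc2 and 1 of Lats2, and both Wwc1 calls were lost (adjusted p = 0.101 and 0.0884), as were those of Lats2 1419678_PM_at (0.0973) and Amot (0.241).

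For Nf2 knockout 60 probe sets were called, and 21 to 32 with 1 array left out, each omission moving the count by over 1.5 times. Called members numbered 3, with 1 from the 6 arrays alone, 1 with 1 probe set a gene and 1 to 2 with 1 array left out. The replicate block in 6 arrays left 0 probe sets and 0 members called by limma, with 3723 and 8 at an unadjusted p under 0.05. The block within all 12 arrays left 44 called, 38 of them shared with the 60. The difference of the effects was called for 54 probe sets, 201 with a trended and robust variance, 25 with the block within 12 arrays and 29 to 208 with 1 array left out (208 without overexpression replicate 2), and for none of the members in any of these. The cause of these changes was not tested. Sav1 1416075_PM_at was also called with array medians subtracted (adjusted p = 0.0469). The number of arrays limits every value.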
